A study of Mus musculus with 18 samples.

Results

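The let-7 and miR-98 family was followed here in mouse kidney through 9 mature 5p arms: mmu-let-7a-5p, mmu-let-7b-5p, mmu-let-7c-5p, mmu-let-7d-5p, mmu-let-7e-5p, mmu-let-7f-5p, mmu-let-7g-5p, mmu-let-7i-5p and mmu-miR-98-5p (the mouse prefix mmu is left out below). Members were chosen by name, and all 9 of the listed names were found among the 902 names (735 of them mouse names) of the deposited table, on 12 of its 1184 named entries. The rule is a list of names and uses no measured value, although the list was drawn up with earlier results of these data known. Small RNA from kidney was sequenced in 18 libraries, 6 in each of 3 groups, to compare control mice, mice with diabetic nephropathy and such mice given germacrone, a plant sesquiterpene. C57BL/6J mice that received 0.9% saline formed the control group. C57BL/KsJ mice that also received 0.9% saline formed the diabetic nephropathy group (DN), and C57BL/KsJ mice with the disease that received germacrone, dosed at 10 mg/kg/day, formed the treated group. The labels name no diabetes allele, age or vehicle for the treated group, so the model is known only by its strain and group name. Because control mice were of another strain, effects of strain and of disease cannot be told apart in any comparison with control. Whether the 6 libraries of a group are separate animals is not stated in the labels, and p-values therefore measure the spread between these libraries, which may be technical.

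The let-7 microRNAs are among the most abundant and most conserved small RNAs of adult animal tissue. A mature let-7 guides Argonaute proteins to messenger RNAs that pair with its seed, the bases near its 5′ end, and lowers their translation and stability. Members with one seed can act on overlapping sets of targets, which include growth genes such as those of the Ras and Hmga families and, for some members, the type I TGF-beta receptor, a central receptor in kidney fibrosis. Lin28 proteins block the processing of let-7 precursors in embryonic cells, and let-7 levels rise as tissues differentiate. The 9 mature sequences are shown because the members are told apart by very few bases. They were taken from RefSeq (GRCm38.p6), where all 9 names matched, and are written 5′ to 3′ with the seed, bases 2 to 8, in capitals.

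let-7a-5p: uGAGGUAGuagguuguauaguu
let-7c-5p: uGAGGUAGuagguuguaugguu
let-7b-5p: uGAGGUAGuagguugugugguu
let-7e-5p: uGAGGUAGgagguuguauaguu
let-7f-5p: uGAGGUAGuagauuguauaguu
let-7d-5p: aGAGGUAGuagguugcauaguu
let-7g-5p: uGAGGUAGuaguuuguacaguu
let-7i-5p: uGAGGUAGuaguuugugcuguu
miR-98-5p: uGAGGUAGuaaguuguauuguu

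All 9 were 22 bases long and shared the seed GAGGUAG, so every difference lay outside it. Counted from the 5′ end, with the base of let-7a-5p first, let-7c-5p differed by A19G, let-7b-5p by A17G and A19G, let-7e-5p by U9G and let-7f-5p by G12A. Differences from let-7a-5p were U1A and U16C in let-7d-5p, G12U and U18C in let-7g-5p, G11A and A19U in miR-98-5p, and G12U, A17G, U18C and A19U in let-7i-5p. Of the 36 pairs of members, 4 differed by 1 base (let-7a-5p with let-7c-5p, let-7e-5p and let-7f-5p, and let-7b-5p with let-7c-5p). The number of G and C bases ran from 7 in let-7f-5p and miR-98-5p over 8 in let-7a-5p and let-7g-5p and 9 in let-7c-5p, let-7d-5p, let-7e-5p and let-7i-5p to 10 in let-7b-5p. Among 1679 mature mouse names in the RefSeq table, 11 (0.655%) carried this seed: the 9 members, let-7k, and miR-1961, which was not analysed here. The sequence of let-7j follows that of let-7i-5p but has another base at the end of the seed (G8U against let-7a-5p), so it was not counted with them.

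let-7j: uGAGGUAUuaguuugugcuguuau

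Mouse let-7 hairpins lie in several genomic clusters, often beside miR-99, miR-100 or miR-125 hairpins, and some mature members are made from more than one hairpin. All positions are in GRCm38.p6. The let-7d, let-7f-1 and let-7a-1 hairpins lay together on the minus strand of chromosome 13 (chr13:48536012-48536114, chr13:48537829-48537917 and chr13:48538179-48538272), in exons of the lincRNA 6720427I07Rik. The let-7c-2 and let-7b hairpins lay 621 bases apart on the plus strand of chromosome 15 (chr15:85706603-85706697 and chr15:85707319-85707403), in exons of the noncoding transcript Lncppara. On chromosome 16 the miR-99a and let-7c-1 hairpins (chr16:77598936-77599000 and chr16:77599657-77599750) lay in an intron of the host transcript Mir99ahg, on the plus strand like all those that follow except let-7i. Chromosome 17 held let-7e (chr17:17830352-17830444) in an intron of Spaca6, beside miR-125a (chr17:17830812-17830879). Chromosome 9 held let-7a-2 (chr9:41536716-41536811) between miR-100 and miR-125b-1 in an intron of 3110039I08Rik, and far from them let-7g (chr9:106178840-106178927) in an intron of Wdr82. The let-7f-2 and miR-98 hairpins (chrX:151912346-151912428 and chrX:151913214-151913321) lay in an intron of Huwe1, and let-7i (chr10:122985640-122985724) overlapped an exon of D630033A02Rik.

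The entries of the table have to be read with this likeness in mind. The name let-7a-5p stood on 2 entries with different values. In all 18 libraries the larger one equalled the entries of let-7c-5p exactly, although their sequences differ at 1 base, and the smaller one held 40.3% to 52.86% of the larger (median 47.33%). By the rule used for copies of a name, the larger entry stands for let-7a-5p in the family's sums and shares, and values of the smaller entry are given beside it. The values of let-7a-5p and let-7c-5p are therefore 1 measurement, printed below as let-7c-5p, and no source used here gives how the authors' counting divided reads between them. The 2 entries of let-7f-5p equalled each other, as did the 2 of let-7c-5p, and each pair was used once. Few values of the members were whole numbers (15 of 216), so their counts are estimates, and members 1 base apart may share reads.

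Library totals were 3645173 to 7239343 counts. Levels are given as CPM, counts scaled to a common library size with TMM factors. Within groups, the median correlation of a library with its group was 0.958 to 0.973 except in control 2 (0.946), DN 2 (0.896) and DN 3 (0.926), and the fits, sums and shares that these 3 change most are also given without them. The kidney label was checked against 6 epithelial miRNAs, all tested and summing to group medians of 119378 CPM in control, 141340 in DN and 166083 in treated libraries. DN 2 was lowest of all 18 at 51624 CPM, beside 120613 in control 2 and 108587 in DN 3. A leukocyte list of 6 miRNAs, all tested, summed to 23150 CPM in DN 2, against medians of 3289 in control, 1560 in DN and 1664 in treated libraries, and to 8492 CPM in treated 6. The 2 endothelial miRNAs summed to 9172 CPM in control 2, 8007 in DN 2 and 8034 in DN 3, against medians of 19390, 19547 and 22202 in the 3 groups, and the 3 smooth muscle miRNAs were lowest of their groups in control 2 (26269 CPM) and DN 3 (21914 CPM). The part of these cell types in the members' values was not tested. In bulk tissue, fewer cells of a type and less RNA per cell cannot be told apart.

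All 9 members were abundant in kidney. Over the 18 libraries, let-7g-5p ranked 12th, let-7f-5p 13th, let-7c-5p 15th and let-7b-5p 18th of 505 tested names by mean CPM, and the least abundant, miR-98-5p, ranked 73rd. Summed over the 9 members, control libraries held 130730 ± 11354 CPM (SD, n = 6), DN libraries 121604 ± 33582 and treated libraries 106076 ± 11853. Both let-7a-5p and the equal let-7c-5p are added in these sums, so their shared value enters under each name. The same holds for the shares below, except where the smaller let-7a-5p entry is named. The control libraries ranged from 110521 to 142180 CPM and the treated ones from 91085 to 120316, so these groups overlapped. DN 3 was the highest of all 18 libraries at 186905 CPM, and the other 5 DN libraries lay between 96119 and 121003. With the smaller let-7a-5p entry the sums were 118048 ± 9352, 111340 ± 29743 and 97543 ± 11045 CPM. Without control 2, DN 2 and DN 3 the first sums became 128440 ± 11037 CPM in control (n = 5) and 111650 ± 10468 in DN libraries (n = 4). These sums are a description, and no test was made of them.

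**Figure D1:**
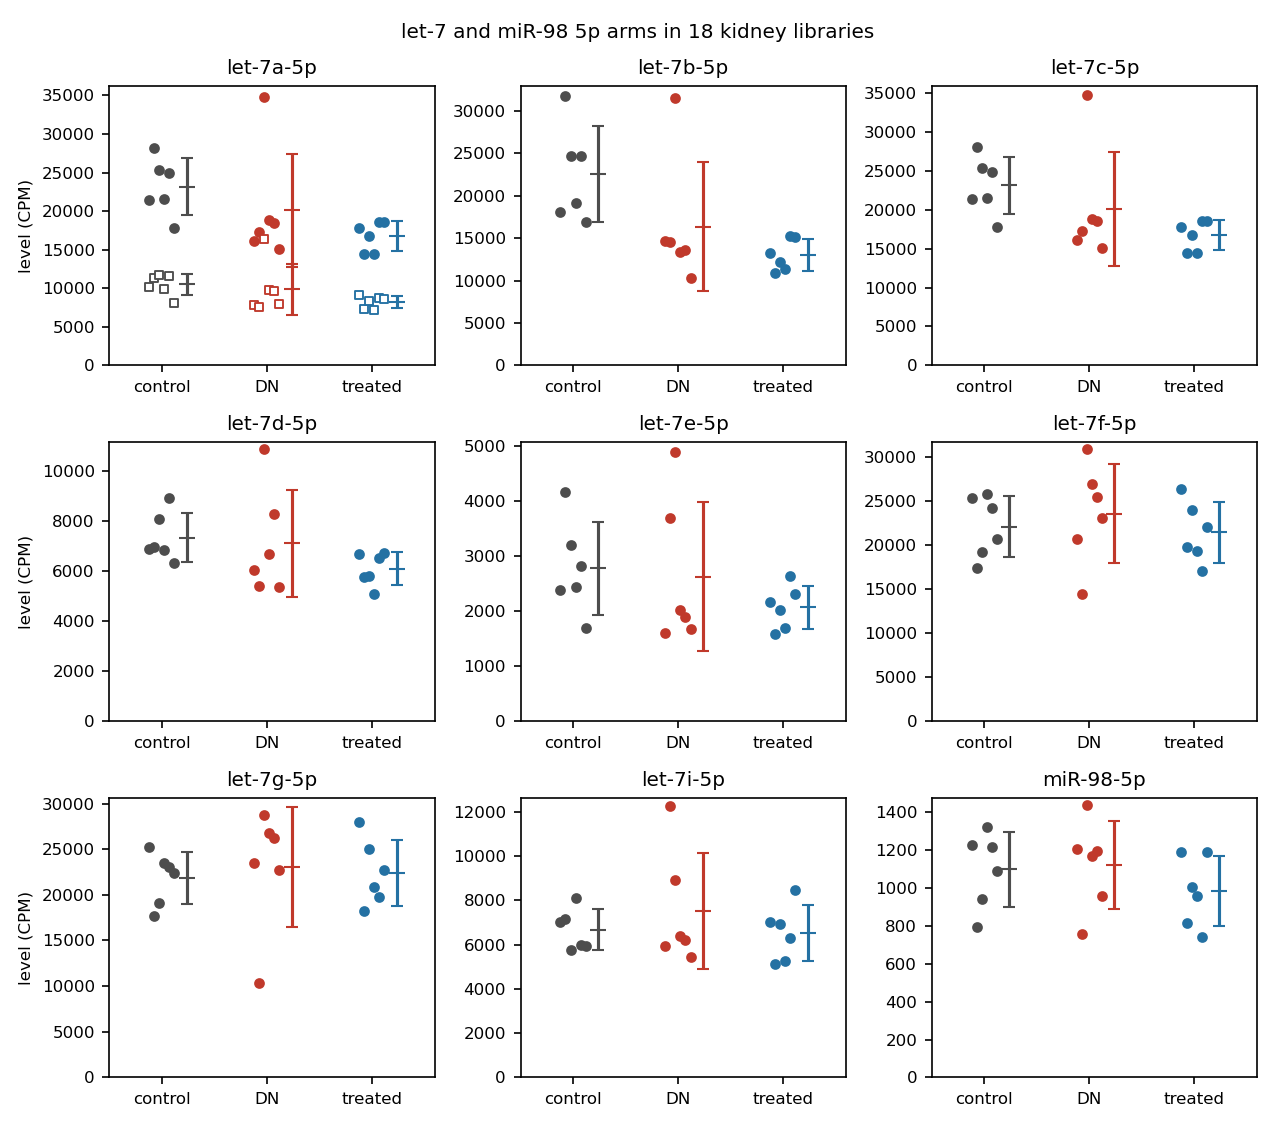
Level (CPM, linear axes from 0) of each of the 9 members in the 18 libraries, 6 in each of the control, DN and treated groups; dots are libraries and bars the mean with the SD. Open squares in the first panel are the smaller let-7a-5p entry, and the let-7c-5p panel repeats the larger one; in let-7b-5p the treated libraries (10849 to 15318 CPM) lie below every control library (16863 to 31806 CPM).

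The order of the members by level was as follows. In control libraries let-7c-5p (23174 ± 3667 CPM, SD, n = 6), let-7b-5p (22561 ± 5635), let-7f-5p (22083 ± 3473) and let-7g-5p (21839 ± 2866) had overlapping ranges, and no neighbours among them differed beyond their spread. In treated libraries the order was let-7g-5p (22417 ± 3600 CPM), let-7f-5p (21429 ± 3414), let-7c-5p (16765 ± 1905) and let-7b-5p (13019 ± 1901), and each overlapped the next. In DN libraries the order was let-7f-5p (23563 ± 5653 CPM), let-7g-5p (23050 ± 6597), let-7c-5p (20120 ± 7327) and let-7b-5p (16351 ± 7613), all overlapping. Within libraries let-7c-5p was above let-7b-5p in 5 of 6 control, 6 of 6 DN and 6 of 6 treated libraries. Below these came let-7d-5p and let-7i-5p, which overlapped in every group, then let-7e-5p and last miR-98-5p, with no overlap between let-7e-5p and either neighbour in any group.

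The largest differences from control were those of let-7b-5p, a member made from 1 hairpin and reported elsewhere to act on the type I TGF-beta receptor in kidney cells. In control libraries let-7b-5p ranged from 16863 CPM over a median of 21925 to 31806 in control 2. In DN libraries it ranged from 10350 over a median of 14090 to 31558 in DN 3, and in treated libraries from 10849 over 12718 to 15318. DN 3 was within the control range, the other 5 DN libraries (10350 to 14699 CPM) lay below every control library, and all 6 treated libraries lay below every control library. The fitted log2 fold change of let-7b-5p was −0.79 (SE 0.228, 95% interval −1.27 to −0.32) in treated against control, a level 42.3% lower, with an unadjusted p of 0.00261 and an adjusted p of 0.148 in edgeR's quasi-likelihood test. In DN against control it was −0.46 (SE 0.228, unadjusted p = 0.056, adjusted p = 0.618, edgeR), and in treated against DN −0.33 (SE 0.228, adjusted p = 0.8, edgeR). None of the 3 passed the threshold of an adjusted p under 0.05, so no difference in let-7b-5p held after correction over the 619 tested entries.

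Next in size in both comparisons with control came let-7c-5p, whose sequence is 1 base from let-7b-5p. Control libraries ranged from 17752 over a median of 23234 to 28113 CPM, DN libraries from 15107 over 17915 to 34799 and treated libraries from 14422 over 17285 to 18573. The 6 treated libraries were all below the control median, with the highest of them above the lowest control, and DN 3 was above every other library. For treated against control the log2 fold change was −0.47 (SE 0.182, unadjusted p = 0.019, adjusted p = 0.186, edgeR). DN against control gave −0.20 (SE 0.182, adjusted p = 0.82, edgeR) and treated against DN −0.26 (SE 0.182, adjusted p = 0.8, edgeR). These 2 values moved with single libraries, most of all with DN 3: without it they were −0.42 (adjusted p = 0.112, edgeR) and −0.0592, and without the 3 libraries standing apart −0.39 (adjusted p = 0.0818, edgeR) and −0.0393. Leaving out each library in turn, they ran from −0.42 to −0.0692 and from −0.37 to −0.0592. The smaller let-7a-5p entry, with means of 10492 ± 1375, 9856 ± 3314 and 8232 ± 807 CPM in control, DN and treated libraries, had a log2 fold change of −0.35 in treated against control (SE 0.173, unadjusted p = 0.0575, adjusted p = 0.265, edgeR). Its 6 treated libraries (7207 to 9165 CPM) were below the control median of 10768.

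Differences of let-7d-5p and let-7e-5p between groups did not pass the threshold, and their ranges overlapped. For let-7d-5p, processed from the chromosome 13 cluster with let-7a-1 and let-7f-1, control libraries ran from 6324 over 6937 to 8927 CPM, DN libraries from 5397 over 6368 to 10883 and treated libraries from 5081 over 6185 to 6734. All 6 treated libraries were below the control median, with overlap, at a log2 fold change of −0.27 (SE 0.168, adjusted p = 0.391, edgeR). For let-7e-5p, from the miR-99b, let-7e and miR-125a cluster, the ranges were 1692 over 2627 to 4172 CPM in control, 1602 over 1954 to 4896 in DN and 1584 over 2103 to 2644 in treated libraries. DN 2 (3704 CPM) and DN 3 were the high DN libraries, the groups overlapped, and treated against control gave −0.43 (SE 0.275, adjusted p = 0.399, edgeR). In DN against control the log2 fold changes were −0.045 for let-7d-5p and −0.0823 for let-7e-5p, both with SEs larger than the change. For let-7e-5p that value changed to −0.51 (adjusted p = 0.124, edgeR) without control 2, DN 2 and DN 3, and to −0.45 (adjusted p = 0.0804) with limma-voom. In treated against DN let-7e-5p stood at −0.34 (SE 0.275, adjusted p = 0.8, edgeR), the largest of the 9 members there, and at 0.20 without the 3 libraries.

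The other 4 members overlapped widely between all groups. For let-7f-5p, control libraries ran from 17410 over 22416 to 25763 CPM, DN libraries from 14438 over 24226 to 30866 and treated libraries from 17031 over 20904 to 26391. For let-7g-5p they ran from 17639 over 22760 to 25236 in control, from 10378 over 24827 to 28768 in DN and from 18201 over 21748 to 27984 in treated libraries. In both members the lowest and the highest DN library were DN 2 and DN 3. Log2 fold changes of treated against control were −0.0433 (SE 0.168, 95% interval −0.39 to 0.31) for let-7f-5p and 0.0377 (SE 0.191, 95% interval −0.36 to 0.44) for let-7g-5p, intervals that include both a lower and a higher level. For let-7i-5p, DN 2 held 12251 CPM and the other DN libraries 5452 to 8896, against 5776 to 8117 in control and 5108 to 8469 in treated libraries. The rarest member, miR-98-5p, ran from 795 over 1152 to 1324 CPM in control, from 760 over 1181 to 1441 in DN and from 743 over 982 to 1189 in treated libraries. Their log2 fold changes of treated against control were −0.0329 (SE 0.193) and −0.16 (SE 0.182).

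Counted over the family, no member passed the adjusted threshold in any of the 3 comparisons with edgeR's quasi-likelihood test, where 0% of the 619 tested entries passed in each. In DN against control 5 of 9 members had a log2 fold change below 0, beside 43.5% of all entries, with a median of −0.045 over the members and 0.0752 over all entries. At an unadjusted p under 0.05 none of the 9 was called in DN against control, beside 7.59% of entries. In treated against DN 9 of 9 were below 0, from −0.0401 for let-7g-5p to −0.34 for let-7e-5p, beside 57.8% of all entries, with medians of −0.22 and −0.0542, and none reached an unadjusted p under 0.05, beside 3.72%. Without DN 3 that count was 8 of 9, with a median of −0.0634 over the members, beside 57.8% of all entries below 0. Without the 3 libraries standing apart the count was 7 of 9, with a median of −0.0393, beside 48.6% of all entries. Between treated and control 8 of 9 were below 0, beside 50.2%, with medians of −0.27 and −0.00352. There 3 of 9 had an unadjusted p under 0.05 in the lower direction (let-7b-5p, let-7c-5p and the equal let-7a-5p entry), beside 8.89% of all entries, and 2 of 9 with the smaller let-7a-5p entry. Only let-7b-5p had treated libraries that did not overlap the control ones, beside 1.62% of entries that did not overlap in the lower direction. Since the 3 comparisons share libraries, their counts stand side by side and are not independent of each other.

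**Figure D2:**
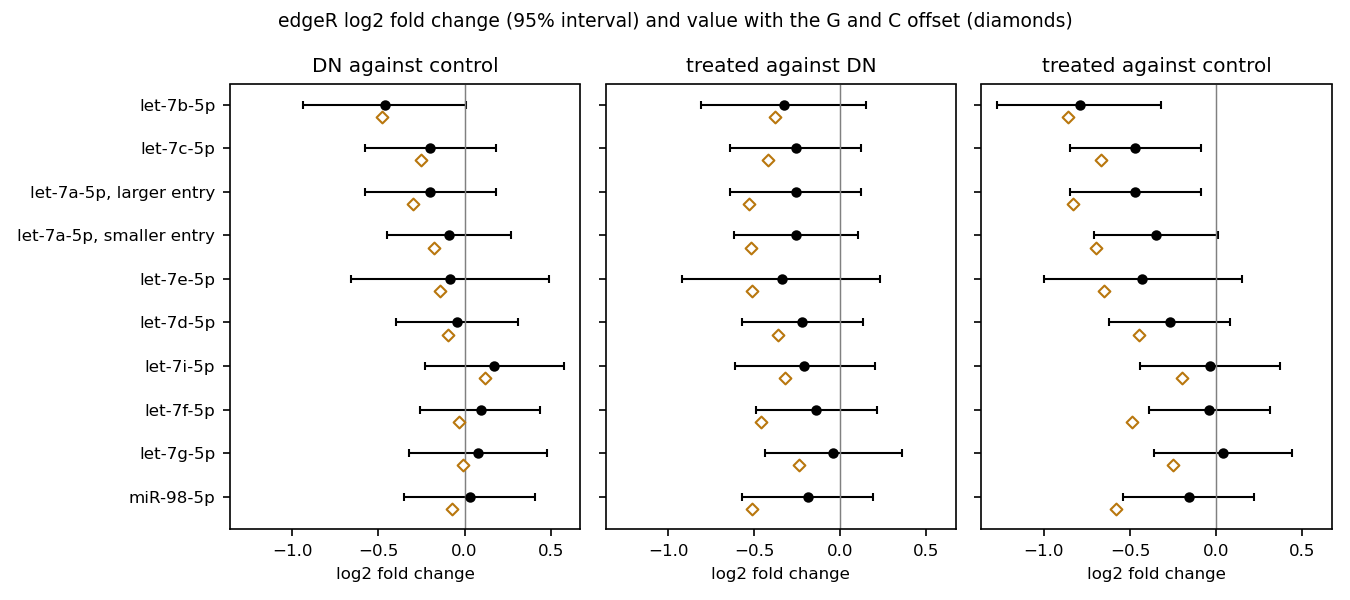
Log2 fold change of each member in the 3 comparisons (black dots, edgeR, bars the 95% interval; diamonds, the value after an offset for the number of G and C bases). In treated against control the intervals of let-7b-5p and let-7c-5p, with the equal let-7a-5p entry, lie below 0, and let-7b-5p is lowest at −0.79.

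Calls of let-7b-5p and let-7c-5p depended on the tool and on the libraries standing apart. In treated against control, let-7b-5p was called lower by DESeq2 (log2 fold change −0.85, adjusted p = 0.0352), by limma-voom with sample weights (−0.75, adjusted p = 0.00585), by edgeR on only the treated and control libraries (−0.82, adjusted p = 0.0288) and by edgeR without DN 3 (−0.80, adjusted p = 0.0347). It was also called by edgeR without control 2, DN 2 and DN 3 together (−0.70, adjusted p = 0.0151), a fit that called let-7c-5p and the equal let-7a-5p entry too (−0.43, adjusted p = 0.0403). These equal entries were also called lower in treated against control by limma-voom (−0.45, adjusted p = 0.0182) and by edgeR on only the treated and control libraries (−0.49, adjusted p = 0.0423). The smaller let-7a-5p entry was called lower there by limma-voom alone (adjusted p = 0.0364). Over all 31 alternatives the log2 fold change of let-7b-5p stayed between −1.02 and −0.64 in that comparison, with adjusted p from 0.00585 to 0.296. Among all entries, those called in these settings were 4.6% with DESeq2, 17.1% with limma-voom, 9.76% with only treated and control libraries, 0.472% without DN 3 and 7.86% without the 3 libraries. In DN against control let-7b-5p was called lower without DN 3 (−0.75, adjusted p = 0.0469, edgeR), without the 3 libraries together (−0.69, adjusted p = 0.0249, edgeR) and by limma-voom (−0.70, adjusted p = 0.00757), which also called let-7c-5p (−0.35, adjusted p = 0.0476), beside 0.945%, 8.02% and 14.7% of all entries called in these settings. Over the alternatives its log2 fold change ran from −0.75 to −0.29. No member was called in treated against DN by any alternative, and without the 3 libraries let-7b-5p stood at −0.00604 there.

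The make-up of the family does not depend on how a library is scaled. The share of let-7b-5p in the summed counts of the 9 members was 17.1% ± 3.14 in control (SD, n = 6; 14% to 22.4%), 13.1% ± 2.6 in DN (10.4% to 16.9%) and 12.3% ± 1.35 in treated libraries (11% to 14.5%). All 6 treated libraries were below the control median of 16.4%, and the ranges overlapped by little, since the highest treated share was 14.5% and the lowest control share 14%. The share of let-7g-5p was 16.9% ± 3.03 in control, 19.2% ± 4.94 in DN and 21.1% ± 1.86 in treated libraries, and let-7f-5p stood at 17.0% ± 3.03, 19.6% ± 3.23 and 20.2% ± 2.26. For let-7g-5p and let-7i-5p, 6 of 6 treated libraries had a share above the control median. Shares within a library depend on each other, since a lower share of some members raises those of the rest. The levels of let-7g-5p and let-7i-5p had log2 fold changes of 0.0377 and −0.0329 in treated against control. With all 18 libraries no member's share was separated between groups in any comparison. Without control 2, DN 2 and DN 3, shares of let-7b-5p were 16.1% ± 2 in control (n = 5; 14% to 18.7%) and 11.7% ± 1.53 in DN (n = 4; 10.4% to 13.9%), and those of let-7g-5p 17.8% ± 2.35 (14.5% to 20.3%) and 22.2% ± 0.371 (21.8% to 22.7%). Those of let-7c-5p were 16.1% to 19.2% and 15.1% to 15.6%. These groups did not overlap in let-7b-5p, let-7g-5p and let-7c-5p with the equal let-7a-5p entry, and overlapped in the other members. DN 2 and DN 3, left out here, stood at 15.1% and 16.9% for let-7b-5p and at 18% and 18.6% for let-7c-5p. For let-7g-5p they stood at 10.8% and 15.4%, so the separation rests on leaving them out. None of these shares was tested.

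**Figure D3:**
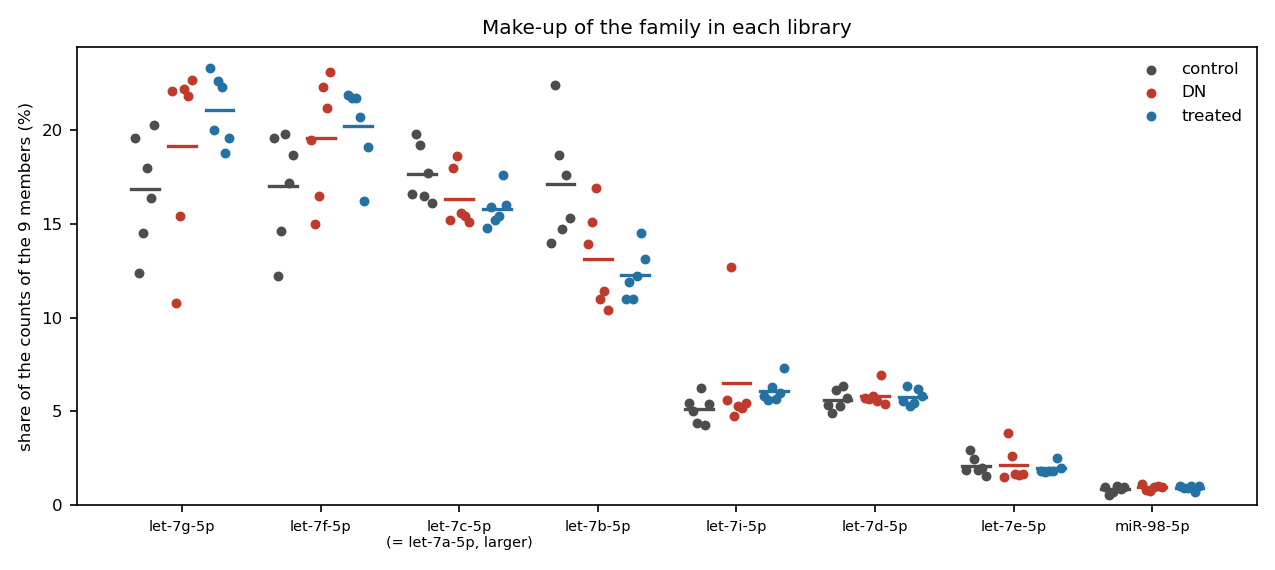
Share (%) of each member in the summed counts of the 9 members; dots are libraries and lines group means, with control in grey, DN in red and treated in blue. Shares of let-7b-5p and let-7g-5p differ in opposite directions between control and treated (17.1% to 12.3% and 16.9% to 21.1%). Shares depend on each other, and the level of let-7g-5p had a log2 fold change of 0.0377 there. DN 2 stands apart in let-7i-5p at 12.7%.

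As a ratio within each library, let-7b-5p over let-7g-5p was 1.07 ± 0.419 in control (0.717 to 1.8), 0.766 ± 0.39 in DN (0.456 to 1.4) and 0.591 ± 0.115 in treated libraries (0.473 to 0.773). The highest ratios were those of control 2 and, among DN libraries, DN 2, and without the 3 libraries standing apart the ratio was 0.929 ± 0.245 in control (n = 5) and 0.525 ± 0.0727 in DN (n = 4). In every treated library let-7g-5p was the larger of the pair.

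Log2 fold changes were also set beside the number of G and C bases in the sequences. Grouped by the number of G and C bases, the 372 tested mouse names with a RefSeq sequence (84.4% of 441) had median log2 fold changes in treated against control of 0.36 (at most 7, 27 names), 0.18 (8 to 9, 88 names), −0.0701 (10 to 12, 180 names) and −0.46 (13 or more, 77 names). Within the family, let-7b-5p with 10 G and C bases was lowest and let-7f-5p and miR-98-5p with 7 stood at −0.0433 and −0.16, while let-7g-5p with 8 was highest. The order was not strict, since let-7i-5p with 9 stood at −0.0329 and the larger let-7a-5p entry with 8 at −0.47, like let-7c-5p with 9. Members with 7 to 9 such bases other than let-7g-5p were below 0, while the medians of the classes up to 9 bases were above 0. In control 2 and DN 3 miRNAs with at most 7 such bases lay at a median of −1.17 and −1.23 on the log2 scale from the median of the other 5 libraries of the group, and those with 13 or more at 0.85 and 0.81. A trend on the number of G and C bases was also taken out of each library as an offset. All 9 members were then below 0 in treated against control, beside 51.1% of the 405 entries fitted. They ran from −0.20 for let-7i-5p to −0.86 for let-7b-5p (adjusted p = 0.129, edgeR), and none was called, beside 1.23% of these entries. The equal let-7a-5p and let-7c-5p counts had different offsets, for 8 and 9 such bases, and stood at −0.83 and −0.67. Without control 2, DN 2 and DN 3 the class medians in treated against control were 0.11, 0.0638, −0.0497 and −0.31. The part of base composition in the members' differences was not tested.

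The same hairpins also give 3p arms, which are usually degraded as passenger strands. Of the 12 listed 3p arms, 10 names on 11 entries passed the filter on low counts, and let-7a-2-3p did not (0 to 7 counts a library). let-7c-2-3p was not analysed under its own name. It has the sequence of let-7a-1-3p, so the 2 entries named let-7a-1-3p may hold reads of both hairpins. let-7d-3p was the most abundant of them and amounted to 7.53% to 21.9% of let-7d-5p, while let-7g-3p amounted to 0.054% to 0.308% of let-7g-5p. None of the 11 entries passed the adjusted threshold in any comparison, beside 0% of all entries. In treated against control let-7g-3p was lower by a log2 fold change of −0.79 (SE 0.302, unadjusted p = 0.0174, adjusted p = 0.186, edgeR), from 32.5 ± 12.6 CPM in control over 21.5 ± 9.19 in DN to 18.8 ± 4.65 in treated libraries. It was the only 3p arm with an unadjusted p under 0.05 there, beside 19.5% of all entries. let-7e-3p stood at −0.51 (SE 0.25, adjusted p = 0.263, edgeR), with 6 of 6 treated libraries below the control median. let-7a-1-3p, let-7f-2-3p and miR-98-3p were low in the 3 libraries standing apart. They are shown with let-7d-3p, which was high in 2 of these libraries, so that their sequences can be compared (no seed is marked).

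let-7a-1-3p: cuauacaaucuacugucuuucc
let-7f-2-3p: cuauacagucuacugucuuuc
miR-98-3p: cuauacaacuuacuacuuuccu
let-7d-3p: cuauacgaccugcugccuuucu

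let-7a-1-3p and let-7f-2-3p hold 8 G and C bases, miR-98-3p holds 7 and let-7d-3p 11. On the log2 scale, relative to the median of the other 5 libraries of the group, let-7f-2-3p stood at −1.92 in control 2, −1.99 in DN 2 and −2.23 in DN 3. The 2 entries of let-7a-1-3p stood at −2.16, −1.93 and −1.93 (control mean 39.4 CPM) and at −2.26, −2.04 and −1.98 (control mean 138 CPM). miR-98-3p is rare, at 0 CPM in control 2 and DN 3 and 2.8 in DN 2, against 1.2 to 8 CPM in the other control and 4.6 to 11.4 in the other DN libraries. let-7d-3p stood at 1.49 in control 2 and 1.64 in DN 3, and at −0.46 in DN 2. These 4 arms were picked after their values were seen, and other arms differ from them: let-7i-3p with 13 G and C bases stood at −0.04, 1.55 and −0.30, and let-7c-1-3p with 10, at 1.8, 1 and 0 CPM in these 3, was also at 0 CPM in control 5. The 5p arms of the same hairpins differed less in these libraries, with let-7f-5p at −0.47, −0.82 and 0.42 and let-7d-5p at 0.01, −0.3 and 0.85.

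**Figure D4:**
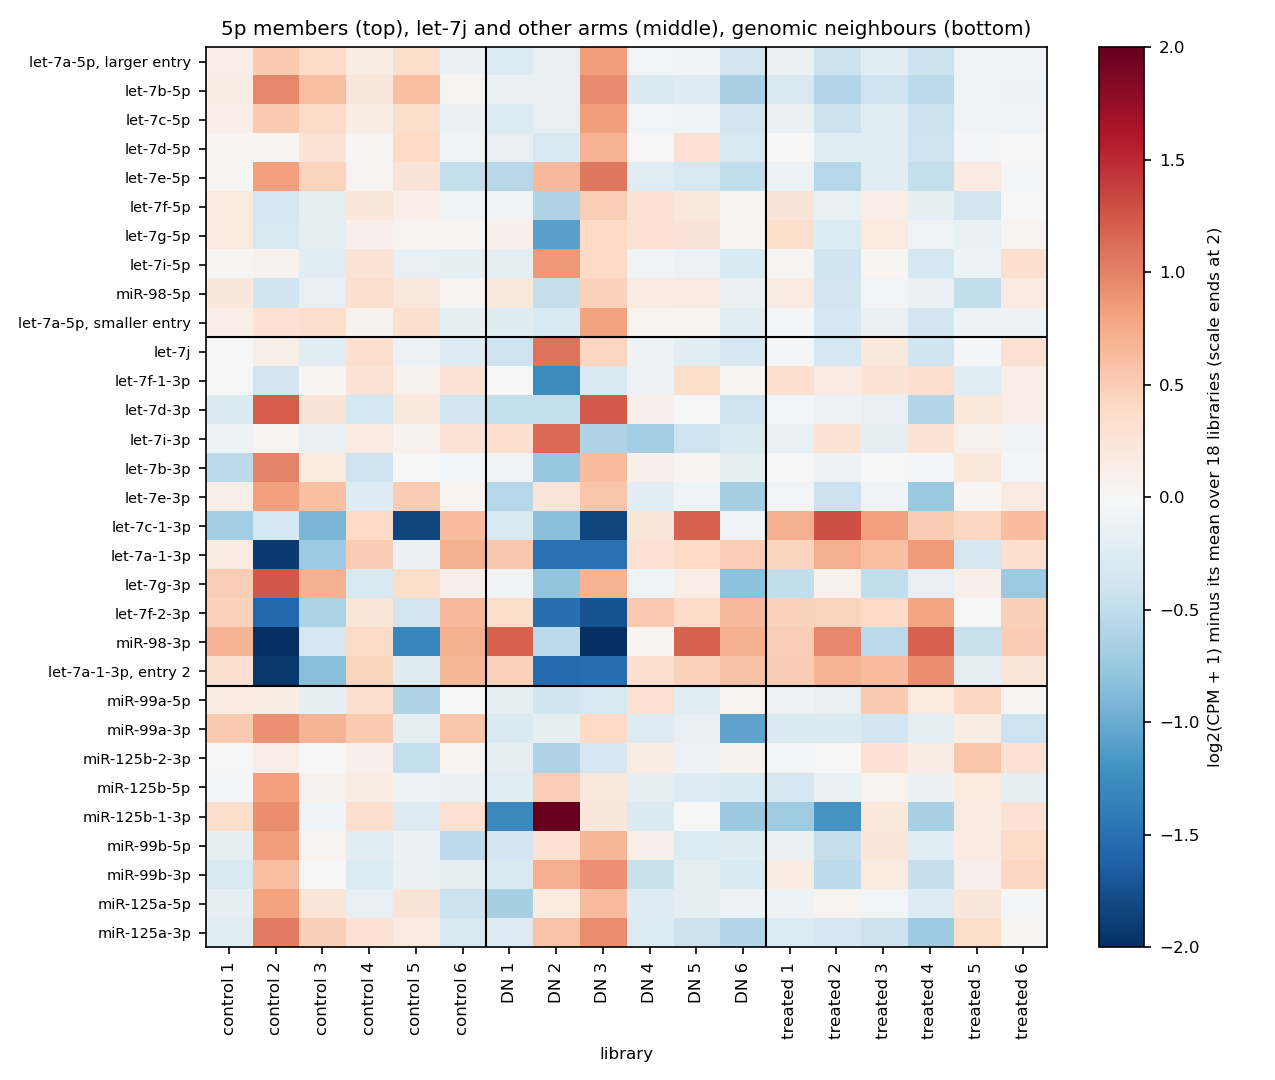
Level of the 9 members and the smaller let-7a-5p entry (top), let-7j and the 3p arms (middle) and miRNAs of neighbouring hairpins (bottom) in each library, as log2(CPM + 1) minus its mean over the 18 libraries; colours end at 2 in both directions. Control 2, DN 2 and DN 3 are low in let-7a-1-3p and let-7f-2-3p, and DN 3 is high in most 5p members.

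Hairpins next to those of the family gave 10 tested names on 11 entries, of which none passed the adjusted threshold in any comparison, beside 0% of all entries. miR-99a-3p, from the hairpin beside let-7c-1, had 17.4 ± 4.18 CPM in control, 10 ± 3.39 in DN and 9.87 ± 1.7 in treated libraries (SD, n = 6). Its log2 fold changes were −0.80 in DN against control (SE 0.256, unadjusted p = 0.00594, adjusted p = 0.277, edgeR) and −0.82 in treated against control (SE 0.257, unadjusted p = 0.00494, adjusted p = 0.17, edgeR), and 6 of 6 libraries of DN and of treated lay below the control median. miR-99a-5p, the abundant arm of that hairpin, equalled miR-100-5p in value in every library and stood at −0.11 and 0.17 in these comparisons. In treated against DN miR-125b-2-3p was higher by 0.38 (SE 0.172, unadjusted p = 0.0404, adjusted p = 0.8, edgeR). Each comparison had 1 of the 11 neighbour entries at an unadjusted p under 0.05. Among all entries that share was 7.59% in DN against control, 3.72% in treated against DN and 19.5% in treated against control. miR-99b-5p and miR-125a-5p, which share a cluster with let-7e-5p, stood at −0.0214 and −0.16 in treated against control, beside −0.43 for let-7e-5p.

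let-7j, with the sequence related to let-7i-5p, had 499 ± 80.3 CPM in control, 568 ± 266 in DN and 491 ± 96.7 in treated libraries, and DN 2 was its highest library at 1065 CPM, as it was for let-7i-5p. let-7k stayed at or below 3.47 CPM in every library, and no difference was detectable at that level (log2 fold change −0.52, SE 0.698, in treated against control).

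Outside the family, the miRNAs whose pattern over the 18 libraries was most like that of let-7b-5p were miR-484, miR-1198-5p and miR-339-5p. Likeness was the root mean square difference of centred log2 CPM, which was 0.174, 0.2 and 0.244 for these, with a median of 0.649 over 180 candidates with a mean of at least 100 CPM. By the same measure let-7c-5p lay at 0.19 from let-7b-5p, let-7e-5p at 0.291 and let-7g-5p at 0.577. For the summed level of the 9 members the nearest were miR-221-3p (0.149), miR-103-3p (0.15) and miR-28a-3p (0.187), with a median of 0.496. All these points share the same libraries, their depth and their G and C trend.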

How the data were processed

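Small RNA of mouse kidney was measured in 18 libraries, and groups were taken from the sample titles, strain and treatment labels. Per the labels' protocols, the authors extracted RNA with Trizol, made TruSeq Small RNA libraries, sequenced them on an Illumina HiSeq and removed adapter dimers, other RNA families and repeats with ACGT101-miR. Trimmomatic 0.32, BWA, SAMtools and edgeR appear in the submitters' processing notes. The genome build, the miRBase release and the counting of reads that match several miRNAs were not given in the sources used here.

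Raw columns deposited by the authors hold estimated counts (76.94% of values above 0 are whole within 1e-09) and were rounded, changing no library total by more than 0.000437%. The normalized columns deposited by the authors hold a signal equal to the raw value times 1 factor per library, and only that factor was used, as an alternative scaling. The 350 entries without a name (0.0136% to 0.148% of counts) were left out.

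All 1184 named entries entered 1 fit in edgeR 4.0.16 (R 4.3.3): filterByExpr by group (minimum count 10, total 15; 619 entries kept, all 9 members among them), TMM factors, group as the only factor, the legacy quasi-likelihood test, 2-sided, and Benjamini-Hochberg adjustment over the 619 entries, with a threshold of 0.05. The fit was tested on simulated data. CPM used the TMM factors, with a prior count of 2 for log2 CPM, and errors are SDs over 6 libraries. Pairs of libraries within a group differed beyond counting noise. Alternatives used limma 3.58.1 and DESeq2 1.42.0 among others. Members, lists and tests were chosen with earlier results of these data known. All members were named; 3p arms, neighbouring miRNAs and names with the seed came from lists written from general knowledge, and like patterns were the 3 nearest names. Sequences and hairpin positions are from RefSeq (GRCm38.p6) and host genes from the GENCODE annotation of the same assembly.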

Additional observations from a re-analysis of the deposited data

Results flagged for a closer look

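In 12 of 90 groups of 6 libraries examined, 1 library lay farther from the others than Dixon's 95% critical value for 6 values allows. For independent groups chance gives about 1 in 20. The 90 groups share the same 18 libraries, and sums and shares contain the members' own levels. The flags are therefore not independent, and their number cannot be weighed against chance. DN 3 was high in let-7b-5p (31558 CPM, the other DN libraries 10350 to 14699), in let-7c-5p and the equal let-7a-5p entry (34799 CPM, others 15107 to 18833), in the smaller let-7a-5p entry (16322 CPM, others 7509 to 9794), in let-7d-3p (1544 CPM, others 473 to 709) and in the sum of the 9 members (186905 CPM, others 96119 to 121003). DN 2 was low in let-7g-5p (10378 CPM, others 22688 to 28768) and high in the share of let-7i-5p in the family (12.7%, others 4.76% to 5.59%). Control 2 was high in let-7d-3p (1525 CPM, others 512 to 789) and let-7b-3p (326 CPM, others 114 to 187). Treated 5 was high in let-7b-3p (190 CPM, others 150 to 164) and in the share of let-7e-5p (2.51%, others 1.74% to 2%), and DN 5 in the share of let-7d-5p (6.93%, others 5.41% to 5.82%).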

How the results depend on the processing

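The direction of let-7b-5p and let-7c-5p was the same under all alternatives in each comparison, and their calls were not. Members called were 0 with all libraries in edgeR. In DN against control 3 were called by limma-voom with sample weights and 1 without control 2, DN 2 and DN 3, and leaving out each library in turn gave 0 to 1 (1 without DN 3). Between treated and control 1 was called by DESeq2, 3 by limma-voom, 3 with only the 2 groups compared and 3 without control 2, DN 2 and DN 3, and leaving out each library gave 0 to 1 (1 without DN 3). Over the whole table these settings called 91 entries (limma-voom), 51 (without the 3 libraries) and 6 (without DN 3) in DN against control, and 24 (DESeq2), 106, 56 (only the 2 groups compared), 50 and 3 between treated and control. The cause was not tested.

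Members near 0 changed sign. In DN against control let-7g-5p became −0.0112 and miR-98-5p −0.0428 with library size only, let-7i-5p −0.0595 with limma-voom, let-7d-5p 0.0118 with only the 2 groups compared, and let-7i-5p −0.14 and miR-98-5p −0.0512 without control 2, DN 2 and DN 3. With the offset for G and C, let-7f-5p became −0.0295, let-7g-5p −0.00839 and miR-98-5p −0.0702. In treated against DN let-7e-5p became 0.088 and let-7i-5p 0.065 with limma-voom, and 0.20 and 0.11 without the 3 libraries. Between treated and control let-7g-5p became −0.00604 with RLE factors and with DESeq2, −0.17 with library size only, −0.00278 with the authors' factor, −0.0425 without the 3 libraries and −0.25 with the offset, and let-7i-5p 0.00546 with limma-voom. Leaving out each library in turn, DN against control ran from −0.20 to 0.0994 for let-7d-5p, −0.33 to 0.13 for let-7e-5p, −0.29 to 0.0476 for the smaller let-7a-5p entry and −0.0496 to 0.15 for miR-98-5p. Treated against DN ran from −0.23 to 0.0173 for let-7g-5p, and treated against control from −0.0841 to 0.046 for let-7f-5p, −0.0866 to 0.0803 for let-7i-5p and −0.00875 to 0.14 for let-7g-5p.

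Sums and shares depend on how copies are counted. With equal entries counted once in the library totals, which made these totals smaller, summed CPM became 159260 in control and 130176 in treated libraries. In those sums let-7a-5p and the equal let-7c-5p were both still added, so their shared value was not counted once there. With entries of a name summed, summed CPM became 187335, 177888 and 150323 in control, DN and treated libraries. With the smaller let-7a-5p entry it became 118048 in control. With that entry, shares in control, DN and treated libraries were 8.86%, 8.75% and 8.46% for let-7a-5p, and in control and treated libraries 19.6% and 17.2% for let-7c-5p and 6.22% and 6.28% for let-7d-5p. With all copies summed they became 12%, 9.12% and 8.55% for let-7b-5p, 24.8%, 22.7% and 22% for let-7c-5p, 3.94%, 4.06% and 4.02% for let-7d-5p, 23.8%, 27.2% and 28.1% for let-7f-5p, 11.8%, 13.3% and 14.7% for let-7g-5p and 0.594%, 0.651% and 0.643% for miR-98-5p. In control and treated libraries they became 1.48% and 1.36% for let-7e-5p and 3.59% and 4.25% for let-7i-5p.

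Replicate numbers did not pair the libraries: deviations of same-numbered libraries correlated from −0.0596 to 0.262, from −0.248 to 0.0146 and from −0.329 to 0.0215 in the 3 comparisons, and no library correlated best with its own number. With the replicate number as a block, 0 members were called in each comparison, and let-7b-5p stood at −0.51, −0.24 and −0.75 in DN against control, treated against DN and treated against control. The smaller let-7a-5p entry, the offset for G and C and the sums and shares without the 3 libraries were chosen after seeing the data. Library totals limit the rare 3p arms, not the members, whose lowest level was 743 CPM.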
